A study of Homo sapiens with 30 samples.

Results

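The genes described here are 41 named genes of autophagy and the lysosome, looked up by symbol among the 60675 gene rows of a HepG2 expression table. All 41 matched a row, and 39 passed the filter on low counts that left 16083 genes for testing. They fall into 10 roles: the TFEB family of transcription factors (3 genes), autophagy receptors (2), ATG8 proteins (5), the initiation complex (3), nucleation and membrane supply (6), conjugation enzymes (4), lysosomal membrane proteins (3), lysosomal proteases with the saposin precursor (7), lysosomal glycosidases (5) and subunits of the proton pump of the lysosome, the V-ATPase (3). The members not tested were MAP1LC3A, with 13 counts in all 30 libraries together and 19 libraries at 0, and the cathepsin gene CTSZ, with 2 to 12 counts per library.

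HepG2 is a line of human liver cancer cells, and bulk RNA was sequenced from it after 24 h with an ethanol extract of 1 of 4 herbal formulas or with vehicle. The doses were 500 (high), 100 (medium) and 20 (low) µg/mL, and the vehicle is given as 0.1% DMSO on the samples but as 2% in the design text of the series. Each dose of Palmul-tang and of Sibjeondaebo-tang is held in 3 libraries, each of Samul-tang in 2, each of Sagunja-tang in 1, and the vehicle in 3. In traditional practice Palmul-tang joins the herbs of Samul-tang with those of Sagunja-tang, and Sibjeondaebo-tang extends Palmul-tang with further herbs. The labels name no separate cultures, so p-values measure the spread between these libraries, which may be technical. All titles name the same batch, but the sample codes of the vehicle libraries carry a prefix of their own, those of Samul-tang and Sagunja-tang another, and those of Palmul-tang and Sibjeondaebo-tang yet another. A difference from vehicle and one between such sets of libraries therefore cannot be told apart, while high against low dose of 1 formula stays within 1 prefix. All 9 tested comparisons with vehicle share the same 3 vehicle libraries.

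Autophagy encloses cytoplasm and worn organelles in a closed membrane sac that fuses with the lysosome, where acid hydrolases break the cargo down. The ULK1 complex starts it, a lipid kinase complex around BECN1 marks the membrane, the conjugation enzymes attach ATG8 proteins such as LC3 to it, and receptors such as p62 bind both the cargo and the ATG8 proteins and are themselves degraded. TFEB and TFE3 are held in the cytoplasm by the kinase complex mTORC1 when nutrients are plentiful, and otherwise enter the nucleus and bind E-box elements in front of many lysosomal genes. Liver cells rely on this route in fasting.

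Library totals ran from 21570416 to 37707232 expected counts. Levels are given as CPM, counts scaled to library size with TMM factors. The 8 markers of hepatocytes and HepG2, among them ALB, AFP and APOB, summed to 49749 to 60048 CPM in every library. The 10 fibroblast markers summed to 9.87 to 10.8 CPM in vehicle and to 6.93 to 8.53 CPM at the high doses of the 3 replicated formulas, and to no more than 11.1 CPM elsewhere except in Sibjeondaebo-tang low-dose replicate 3, where they reached 39.7 CPM with COL1A1 at 8.29 and COL1A2 at 6.96 CPM. The values without that library follow with those of high against low dose. The 5 leukocyte markers summed to 1169 to 1291 CPM in vehicle and to 1508 to 1761 CPM at the same high doses. Nearly all of that sum was LYZ, which hepatoma cells can also express, while PTPRC and CD3E were at 0 CPM in the vehicle libraries and reached at most 0.0298 and 0.0364 CPM in any library. The part of these shifts in the results was not tested.

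The E-box that TFEB and TFE3 bind was looked for as TCACGTG, on both strands, in windows from 250 bases before to 50 bases after each annotated start (RefSeq, GRCh38.p14). Of the 41 genes, 34 had such a window. Of these 34, 9 (26.5%) held the motif, against 4.49% of 27305 genes with a window: ATG14, ATG3, ATP6V0D1, CTSA, CTSD, GAA, LAMP1, MCOLN1 and NEU1. A match describes the letters in the window and does not show a bound site. Stretches from the windows of the lysosomal genes LAMP1, GAA, MCOLN1 and NEU1 are printed as examples, 5′ to 3′ on the gene's strand. The core CACGTG is in capitals, and only stretches before the annotated start are printed.
LAMP1 (chr13:113297027-113297122, plus strand): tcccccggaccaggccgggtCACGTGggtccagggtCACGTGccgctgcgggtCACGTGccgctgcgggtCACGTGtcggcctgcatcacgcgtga
LAMP1 (chr13:113297191-113297236, plus strand): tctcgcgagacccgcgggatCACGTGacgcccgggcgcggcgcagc
GAA (chr17:80101485-80101575, plus strand): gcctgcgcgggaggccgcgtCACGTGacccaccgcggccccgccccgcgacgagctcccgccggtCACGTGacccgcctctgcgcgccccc
MCOLN1 (chr19:7522563-7522623, plus strand): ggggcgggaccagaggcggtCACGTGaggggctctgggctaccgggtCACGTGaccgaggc
NEU1 (chr6:31862922-31862967, minus strand): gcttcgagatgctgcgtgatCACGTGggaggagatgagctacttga
The first LAMP1 stretch holds 4 copies of the core. A further motif was the core TGACNNNGC of the antioxidant response element bound by NRF2. It was in 10 of the 34 genes (29.4%) against 16.1% of all genes. These were ATG101, ATP6V0D1, CTSA, CTSD, CTSL, CTSZ, GAA, GLA, LAMP1 and MAP1LC3B. A link between this motif and the changes in level was not tested. In LAMP1 and GAA this motif overlaps an E-box. The windows of SQSTM1 held neither motif, and sequence outside the windows was not searched.

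To compare levels between genes, CPM was divided by the length of the principal transcript in kilobases. In vehicle libraries the highest levels per kilobase were those of the protease gene CTSD (182 CPM per kb), the sialidase NEU1 (173), the protective protein CTSA (160) and the saposin precursor PSAP (125). LAMP1 and GABARAP followed at 81.7 and 81.3 CPM per kb, a difference too small to order. The transcription factors were far lower, TFE3 at 10.96 and TFEB at 4.60 CPM per kb, and MITF, the family member of pigment cells, at 0.0703, with 5 to 27 counts per library.

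Over all members the median log2 fold change lay between -0.06 and 0.07 in the 9 comparisons with vehicle and the 3 of high against low dose, beside medians of -0.01 to 0.02 over all tested genes. A gene is called here when its edgeR quasi-likelihood test passes an adjusted p of 0.05 over all 16083 genes. Against vehicle, high-dose Palmul-tang had 8 of 39 members higher and 8 lower, where 31.8% of all genes were called (16.3% higher and 15.6% lower). Medium-dose Palmul-tang had 1 and 6 (22.3% of all genes, 11.6% higher and 10.8% lower), and low-dose Palmul-tang 2 and 9 (23.2%, 11.5% and 11.7%). High-dose Sibjeondaebo-tang had 11 higher and 2 lower (36% of all genes, 19.3% higher and 16.7% lower), the medium dose 1 and 4 (30.2%, 15.3% and 14.8%) and the low dose 2 and 5 (23%, 11.5% and 11.5%). High-dose Samul-tang had 5 and 7 (18.5% of all genes, 9.82% higher and 8.69% lower), the medium dose 4 and 4 (19.8%, 10.3% and 9.57%) and the low dose 1 and 3 (11.3%, 6.47% and 4.79%). Counted in both directions together, these shares were near or below the background except at high Palmul-tang (41% of members) and high Samul-tang (30.8%). Low Palmul-tang, at 28.2%, was little above its background of 23.2%, with 2 members higher and 9 lower. High-dose Sibjeondaebo-tang was below its background in total. Its calls were unevenly split, with 11 higher and 2 lower, where all genes had 19.3% and 16.7%.

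**Figure D1:**
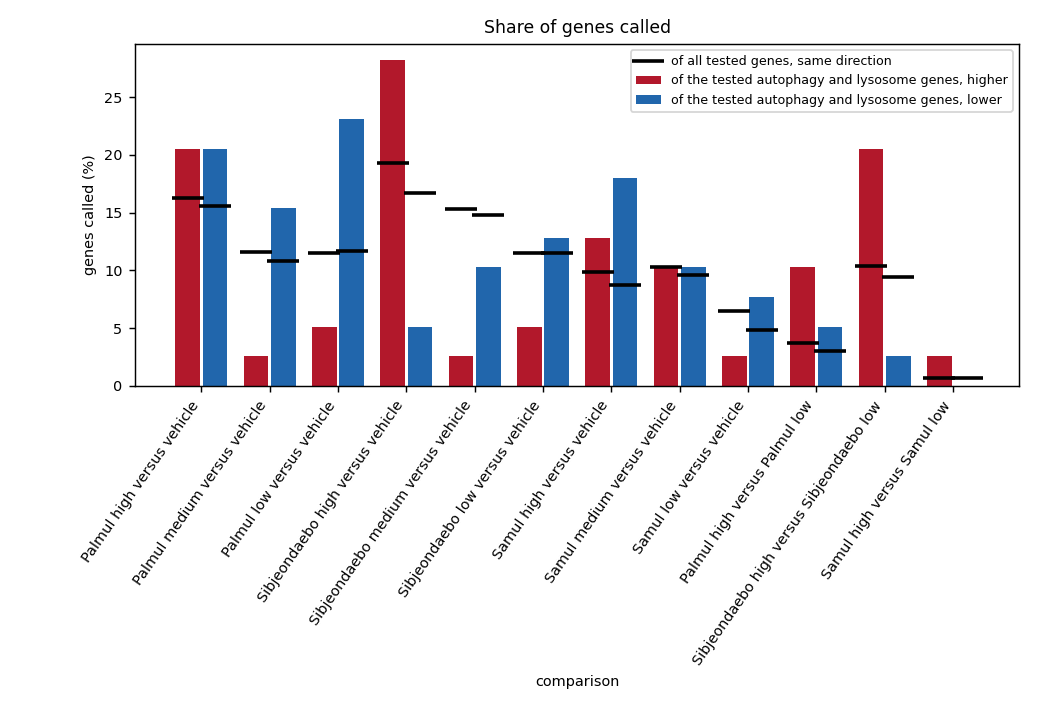
Share of the 39 tested autophagy and lysosome genes called higher (red bars) or lower (blue bars), in percent, in the 9 comparisons with vehicle and the 3 of high against low dose; black marks give the share of all 16083 tested genes called in that direction. The red bar stands above its mark in high dose against vehicle and in high against low dose of all 3 formulas. In Sibjeondaebo-tang it holds 11 and 8 genes. Blue bars stand above their marks too, among them those of low-dose Palmul-tang and high-dose Samul-tang. The 2 bars of high-dose Palmul-tang are equal, with 8 higher and 8 lower genes.

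Several member counts fell when single libraries were left out, and the calls over all genes fell in the same fits. Over all genes medium-dose Palmul-tang went from 1859 higher and 1735 lower to 1609 and 1378 without vehicle replicate 1. Low-dose Sibjeondaebo-tang went from 1852 and 1844 to 1330 and 1279 without its replicate 3. Medium-dose Samul-tang went from 1649 and 1539 to 1265 and 1206 without vehicle replicate 2. How much of a fall came from fewer libraries was not tested. The member count in medium-dose Palmul-tang fell from 7 to 2 without vehicle replicate 1 or medium-dose replicate 2, to 3 without medium-dose replicate 3 and to 4 without vehicle replicate 3. In low-dose Palmul-tang it fell from 11 to between 5 and 7 without any 1 of the 6 libraries. High-dose Sibjeondaebo-tang went from 13 to 8 without its replicate 1 or 3, and low-dose Sibjeondaebo-tang from 7 to 2 without its replicate 3, the library with fibroblast markers, to 3 without vehicle replicate 1 or 2 and to 4 without its replicate 1 or 2. High-dose Samul-tang fell from 12 to 5 without either of its libraries, medium-dose Samul-tang from 8 to 0 without its replicate 2 and to 5 without vehicle replicate 2, and low-dose Samul-tang from 4 to 0 without its replicate 2 and to 2 without vehicle replicate 1 or 3. The squared difference between the 2 medium-dose Samul-tang libraries averaged 31.1 times that of counting noise over genes, against 2.93 to 19 times in the other pairs of replicates. High-dose Palmul-tang kept 12 to 16 calls whichever library was left out. Of the 101 calls of members in all comparisons, 40 held in every one of these fits and under every other processing tried.

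**Figure D2:**
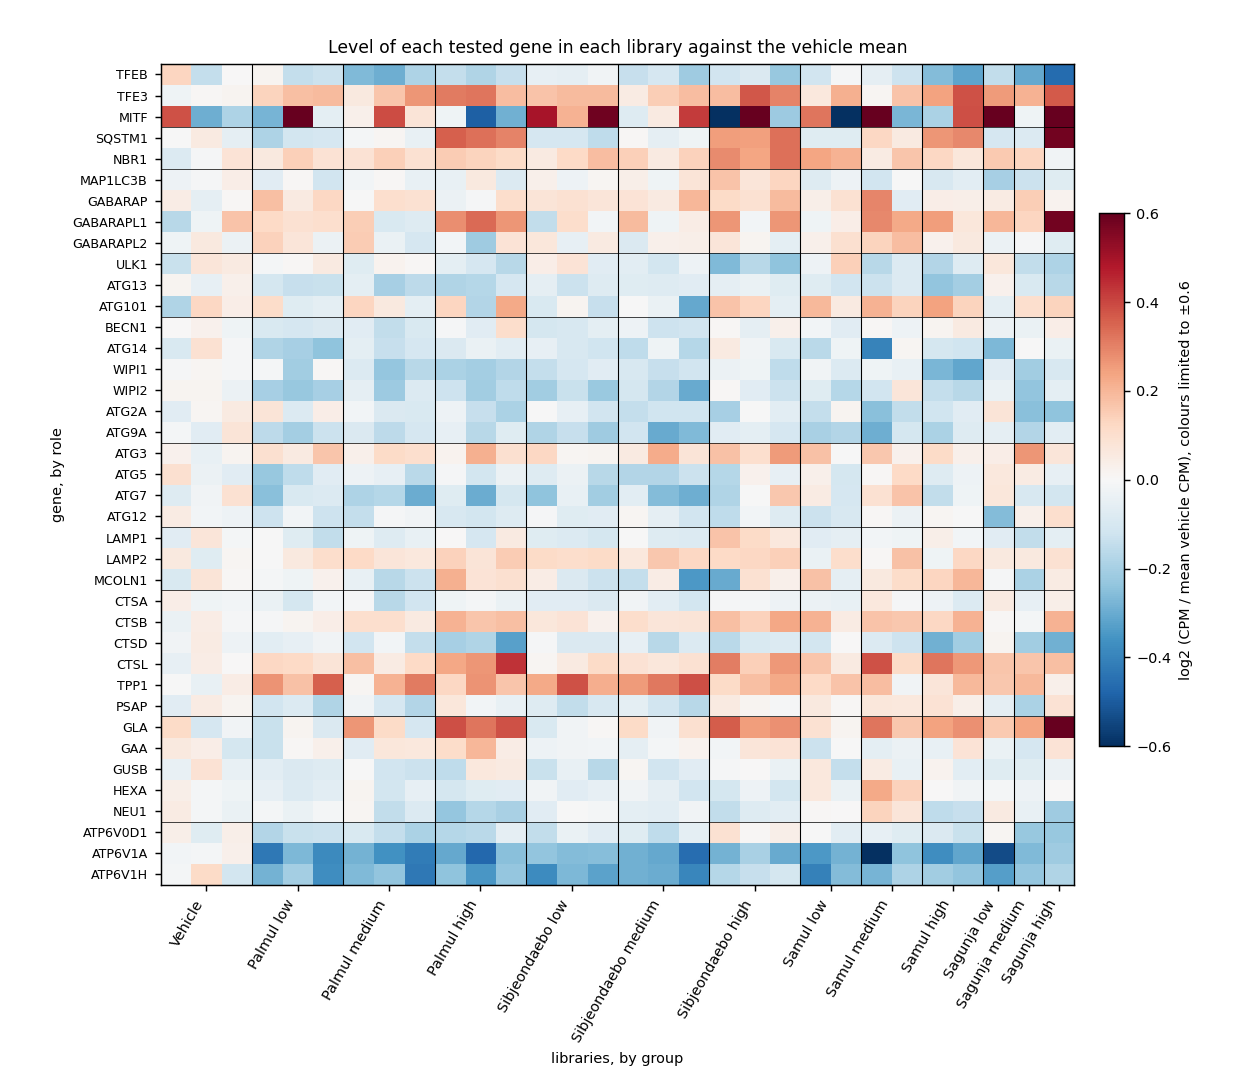
Level of each of the 39 tested genes (rows, by role) in each of the 30 libraries (columns, by group), as log2 of CPM over the mean of the 3 vehicle libraries, with colours limited to ±0.6. SQSTM1, GLA and CTSL turn red at the high doses, ATP6V1A and ATP6V1H are blue in all extract libraries, TPP1 is red in nearly all, and MITF scatters within groups at its 5 to 27 counts per library.

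SQSTM1 encodes p62, the receptor that carries ubiquitinated cargo to the autophagosome (ENSG00000161011, chr5:179806398-179838078, plus strand). Exons of 2 opposite-strand genes, MGAT4B and MRNIP, overlap those of SQSTM1, and their reads cannot be told apart from its own. Its vehicle libraries stood at 175, 182 and 169 CPM, and Palmul-tang libraries at 154, 162 and 163 at the low, 174, 176 and 169.9 at the medium and 224, 220.2 and 215 at the high dose. Sibjeondaebo-tang gave 163, 163 and 157, then 176, 169 and 172, then 208, 208 and 220.0 CPM. Samul-tang gave 167 and 166, then 191 and 182, then 211 and 214 CPM. Every high-dose library lay above every vehicle, low-dose and medium-dose library. In bulk RNA, a changed share of cells with the transcript and a changed level per cell cannot be told apart, here and below. The step from low to high dose came to a log2 fold change of 0.46 (SE 0.04, adjusted p = 1.72e-09) in Palmul-tang, 0.40 (SE 0.04, adjusted p = 1.63e-08) in Sibjeondaebo-tang and 0.35 (SE 0.05, adjusted p = 5.19e-05) in Samul-tang. SQSTM1 was the member with the smallest adjusted p in each formula, and the 3 calls held in every left-out-library fit. Without Sibjeondaebo-tang low-dose replicate 3 its value was 0.38 (adjusted p = 8.66e-07). Against vehicle the high doses were higher by 0.33 (SE 0.04, adjusted p = 3.18e-07), 0.28 (SE 0.04, adjusted p = 4.24e-06) and 0.28 (SE 0.05, adjusted p = 7.06e-05).

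At the low dose SQSTM1 went the other way. It was lower than vehicle, at a log2 fold change of -0.13 (SE 0.04, adjusted p = 0.0202) in Palmul-tang and -0.12 (SE 0.04, adjusted p = 0.0329) in Sibjeondaebo-tang, with no overlap between the groups. The first call was lost without vehicle replicate 1 or 2 or low-dose replicate 1 (adjusted p up to 0.155, and up to 0.209 with other processing, where 4 of 7 settings kept the call), and the second without vehicle replicate 1 or 2 or low-dose replicate 1, 2 or 3 (adjusted p up to 0.199, and up to 0.285 with other processing, where 4 of 7 settings kept the call). With the offset for GC content and length the second was -0.07. SQSTM1 was the only member called in both directions against vehicle. Other processing means 7 further settings that keep every library compared, such as DESeq2 or no low-count filter.

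NBR1 encodes another receptor of ubiquitinated cargo (ENSG00000188554, chr17:43170481-43211689, plus strand). Vehicle libraries stood at 91.6, 96.4 and 103 CPM, and Sibjeondaebo-tang at 101, 105 and 110.2 at the low, 107, 101 and 107 at the medium and 118, 114 and 122 at the high dose. Palmul-tang gave 101, 107 and 103, then 103, 107 and 103, then 108, 106 and 105 CPM. Samul-tang gave 114 and 112, then 100.1 and 109, then 106 and 102 CPM. The 3 Sibjeondaebo-tang high-dose libraries lay above all other libraries but the higher Samul-tang low-dose one, which reached the lowest of them. High-dose Sibjeondaebo-tang was higher than vehicle by 0.28 (SE 0.05, adjusted p = 2.03e-05), a call that held in every left-out fit, and higher than its low dose by 0.16 (SE 0.05, adjusted p = 0.0123), which was lost without low-dose replicate 1 or high-dose replicate 3 (adjusted p up to 0.136, and up to 0.139 with other processing, where 6 of 7 settings kept the call). Low-dose Samul-tang was higher than vehicle by 0.22 (SE 0.05, adjusted p = 0.00538), lost without low-dose replicate 2 (adjusted p up to 0.0659). High-dose Palmul-tang was higher by 0.13 (SE 0.05, adjusted p = 0.0279), lost without vehicle replicate 1 or 2 or high-dose replicate 1 or 2 (adjusted p up to 0.141, and up to 0.055 with other processing, where 6 of 7 settings kept the call).

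**Figure D3:**
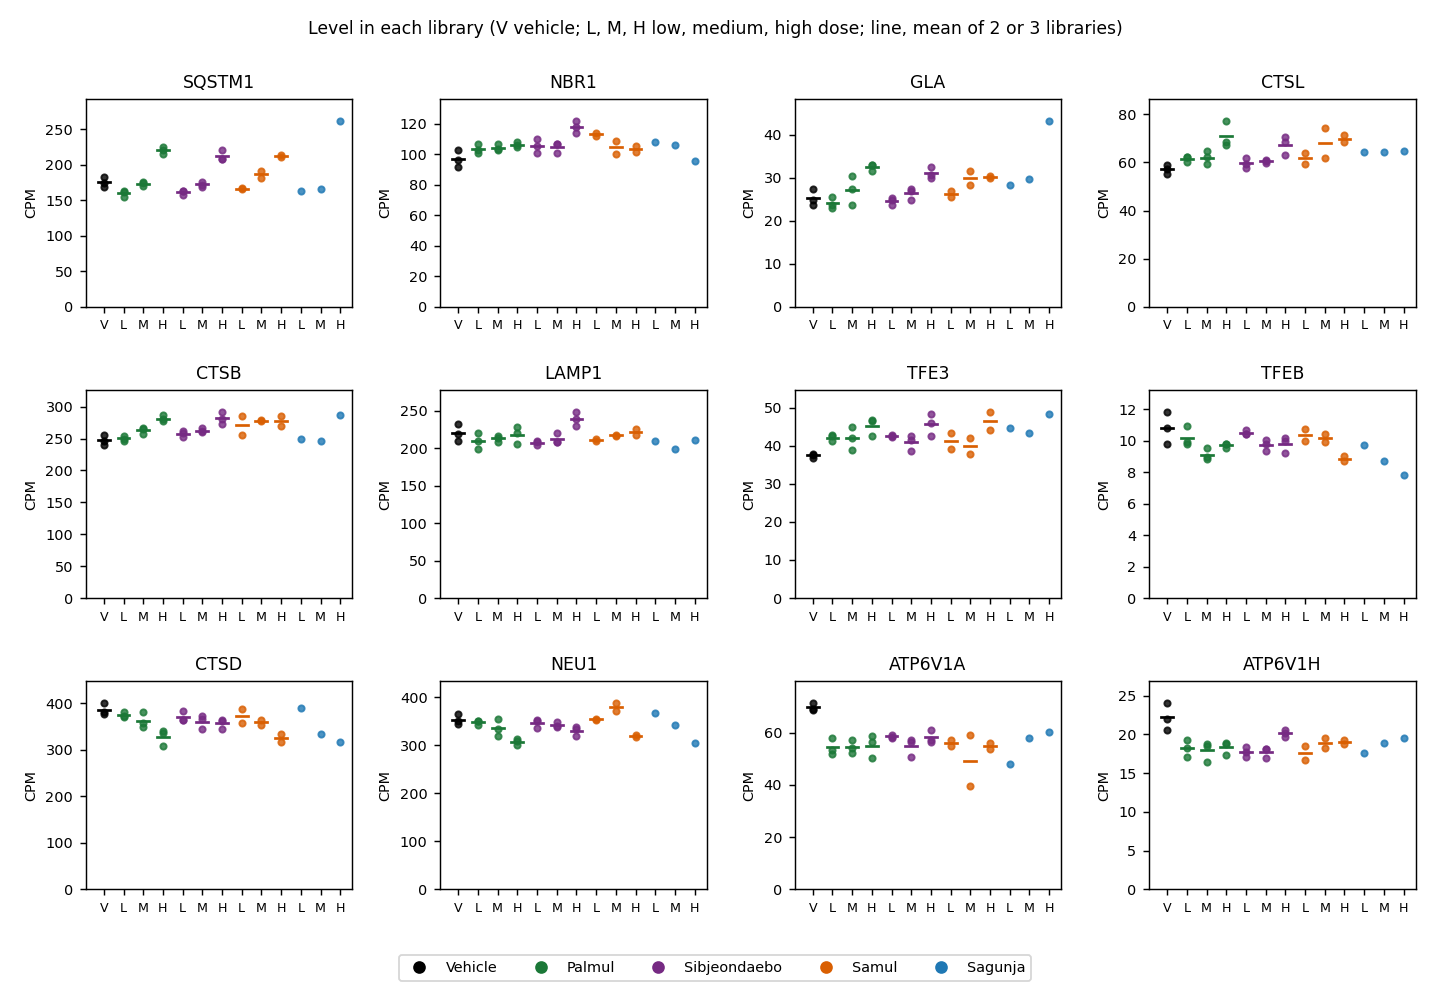
Level in CPM (linear axes from 0) of 12 genes in every library, by group (V vehicle; L, M and H the low, medium and high dose; lines are means of 2 or 3 libraries, Sagunja-tang has 1 library per dose). SQSTM1 high-dose libraries lie between 208 and 261 CPM, above the vehicle libraries at 169 to 182, while ATP6V1A lies below its vehicle libraries in every extract group, at the low dose as at the high.

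Within the TFEB family TFE3 was called only higher and TFEB only lower. TFE3 (ENSG00000068323, chrX:49028726-49043486, minus strand) stood at 36.8, 37.6 and 37.9 CPM in vehicle and at 41.1, 42.5 and 42.7, then 38.9, 41.9 and 44.9, then 46.5, 46.8 and 42.6 CPM at low, medium and high Palmul-tang. Sibjeondaebo-tang gave 42.2, 42.6 and 42.7, then 38.7, 41.4 and 42.6, then 42.6, 48.4 and 45.9 CPM. Samul-tang gave 39.1 and 43.4, then 37.7 and 42.1, then 44.2 and 48.8 CPM. Of the 24 extract libraries of these formulas only 1, a medium-dose Samul-tang library at 37.7 CPM, fell within the vehicle range. High doses were above vehicle by 0.28 (SE 0.06, adjusted p = 0.000727) in Palmul-tang, 0.29 (SE 0.06, adjusted p = 0.000404) in Sibjeondaebo-tang and 0.31 (SE 0.07, adjusted p = 0.00122) in Samul-tang, the last lost without high-dose replicate 3 (adjusted p up to 0.0551). The low doses of Palmul-tang (0.17, adjusted p = 0.04) and Sibjeondaebo-tang (0.18, adjusted p = 0.0265) were called too, the first lost without any 1 of its 6 libraries and the second without vehicle replicate 1 or 2 or low-dose replicate 1, 2 or 3 (adjusted p up to 0.0696). No formula had a call of TFE3 in high against low dose (0.11, 0.10 and 0.17).

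TFEB itself (ENSG00000112561, chr6:41683978-41736259, minus strand) was at 11.8, 9.79 and 10.8 CPM in vehicle and 10.9, 9.81 and 9.91, then 8.999, 8.83 and 9.53, then 9.81, 9.54 and 9.83 CPM at low, medium and high Palmul-tang. Sibjeondaebo-tang gave 10.5, 10.4 and 10.7, then 9.82, 10.1 and 9.34, then 9.98, 10.2 and 9.24 CPM. Samul-tang gave 10.00 and 10.8, then 10.4 and 9.91, then 9.04 and 8.70 CPM. Medium-dose Palmul-tang and high-dose Samul-tang lay wholly below vehicle, and the other groups overlapped it. TFEB was lower in medium-dose Palmul-tang, at a log2 fold change of -0.24 (SE 0.07, adjusted p = 0.0178), lost without vehicle replicate 1 or medium-dose replicate 2 (adjusted p up to 0.135, and up to 0.0792 with other processing, where 4 of 7 settings kept the call), and in high-dose Samul-tang, at a log2 fold change of -0.28 (SE 0.08, adjusted p = 0.0139), lost without vehicle replicate 1 or high-dose replicate 2 or 3 (adjusted p up to 0.109, and up to 0.0853 with other processing, where 6 of 7 settings kept the call). MITF had 0.441, 0.277 and 0.298 CPM in vehicle. Palmul-tang gave 0.279, 0.759 and 0.325, then 0.346, 0.443 and 0.357, then 0.332, 0.241 and 0.277 CPM from low to high dose. Sibjeondaebo-tang gave 0.477, 0.391 and 0.506, then 0.321, 0.351 and 0.453, then 0.207, 0.532 and 0.291 CPM. Samul-tang gave 0.423 and 0.211, then 0.556 and 0.28, then 0.297 and 0.442 CPM. Its libraries scattered within groups, and no comparison of MITF was called.

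The ATG8 proteins coat the growing membrane and hold the receptors there. MAP1LC3B, the main LC3 gene of most cells, stood at 79.4, 80.7 and 83.5 CPM in vehicle. Palmul-tang gave 77.6, 81.7 and 75.0, then 80.4, 81.5 and 78.8, then 78.8, 84.7 and 76.8 CPM from low to high dose. Sibjeondaebo-tang gave 82.96, 79.5 and 81.9, then 83.1, 79.8 and 85.8, then 91.5, 85.3 and 88.8 CPM. Samul-tang gave 77.0 and 79.4, then 75.0 and 81.2, then 75.9 and 77.8 CPM. High-dose Sibjeondaebo-tang lay above vehicle with no overlap. That difference of 0.12 (SE 0.05, adjusted p = 0.0378) was lost without vehicle replicate 1 or 2 or high-dose replicate 1 or 3 (adjusted p up to 0.196, and up to 0.205 with other processing, where 3 of 7 settings kept the call). GABARAPL1, a relative that acts in closing the membrane, stood at 8.99, 9.90 and 11.4 CPM in vehicle. Palmul-tang gave 10.97, 10.8 and 10.8, then 11.2, 9.48 and 9.56, then 12.3, 12.8 and 12.1 CPM from low to high dose. Sibjeondaebo-tang gave 9.12, 10.9 and 9.97, then 11.5, 9.91 and 10.4, then 12.1, 9.97 and 12.1 CPM. Samul-tang gave 9.92 and 10.4, then 12.3 and 11.8, then 12.01 and 10.6 CPM. High-dose Palmul-tang did not overlap vehicle. It was higher by 0.30 (SE 0.09, adjusted p = 0.0106), lost without vehicle replicate 1 (adjusted p up to 0.0744). GABARAP (127 to 163 CPM) and GABARAPL2 (24.5 to 32.3 CPM) were called in no comparison with vehicle. Reads of MAP1LC3B and GABARAPL1 can be shared with near-identical copies, so both values are uncertain.

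Of the initiation complex, the kinase gene ULK1 (ENSG00000177169, chr12:131894651-131923167, plus strand) stood at 24.7, 28.5 and 28.1 CPM in vehicle. Palmul-tang gave 26.9, 27.3 and 28.1, then 25.7, 27.5 and 27.2, then 26.0, 25.3 and 24.1 CPM from low to high dose. Sibjeondaebo-tang gave 27.9, 28.6 and 25.9, then 26.0, 25.1 and 26.6, then 22.5, 24.2 and 23.0 CPM. Samul-tang gave 26.5 and 29.9, then 24.2 and 25.6, then 24.0 and 25.7 CPM. The high-dose Sibjeondaebo-tang libraries lay below all vehicle and low-dose libraries. In Sibjeondaebo-tang ULK1 was lower, at a log2 fold change of -0.24 (SE 0.06, adjusted p = 0.00475) in high against low dose and at a log2 fold change of -0.22 (SE 0.06, adjusted p = 0.00507) against vehicle, and both calls held in every left-out fit and every other processing. Palmul-tang (-0.12, adjusted p = 0.283) and Samul-tang (-0.19, adjusted p = 0.305) had values of the same sign in high against low dose that were not called. ATG13, the scaffold that links ULK1 to the complex, stood at 92.8, 88.5 and 93.8 CPM in vehicle. Palmul-tang gave 85.3, 83.3 and 83.5, then 87.9, 79.95 and 82.3, then 80.9, 81.5 and 85.6 CPM from low to high dose. Sibjeondaebo-tang gave 88.3, 83.9 and 87.0, then 87.2, 86.9 and 87.6, then 88.4, 89.3 and 87.3 CPM. Samul-tang gave 87.1 and 84.6, then 83.8 and 86.8, then 77.7 and 79.6 CPM. High-dose Samul-tang was the lowest group, without overlap with vehicle, and was lower, at a log2 fold change of -0.22 (SE 0.05, adjusted p = 0.00124). ATG13 was also lower in Palmul-tang at the high (-0.15), medium (-0.14) and low dose (-0.13). The high-dose call was lost without the low-count filter (adjusted p = 0.0832). The medium-dose call was lost without vehicle replicate 1 or 3 or medium-dose replicate 2 or 3 (adjusted p up to 0.115, and up to 0.133 with other processing, where 5 of 7 settings kept the call), and the low-dose call without vehicle replicate 1 or 3 or low-dose replicate 2 or 3 (adjusted p up to 0.113, and up to 0.286 with other processing, where 2 of 7 settings kept the call). ATG101 was called nowhere, at 24.3 to 35.4 CPM.

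Among the genes of nucleation and membrane supply every call was a lower level than in vehicle. WIPI1, a reader of the lipid mark on the new membrane, stood at 40.97, 41.6 and 41.03 CPM in vehicle. Palmul-tang gave 40.9, 35.6 and 41.4, then 38.9, 35.0 and 36.7, then 36.1, 35.7 and 36.4 CPM from low to high dose. Sibjeondaebo-tang gave 37.3, 38.5 and 39.3, then 38.5, 37.4 and 38.1, then 40.2, 40.5 and 37.0 CPM. Samul-tang gave 40.6 and 38.9, then 40.5 and 39.9, then 34.1 and 33.2 CPM. It was lower in high-dose Palmul-tang and Samul-tang, at a log2 fold change of -0.19 (SE 0.05, adjusted p = 0.00662) and -0.29 (SE 0.06, adjusted p = 0.000842), both without overlap and both kept in every left-out fit, and at a log2 fold change of -0.16 (adjusted p = 0.0299) in medium-dose Palmul-tang, lost without vehicle replicate 1, 2 or 3 or medium-dose replicate 2 or 3 (adjusted p up to 0.154, and up to 0.104 with other processing, where 6 of 7 settings kept the call). WIPI2, its relative that recruits the conjugation enzymes, stood at 50.1, 50.04 and 48.4 CPM in vehicle. Palmul-tang gave 43.1, 42.3 and 43.1, then 47.7, 42.5 and 46.7, then 45.4, 42.9 and 44.5 CPM from low to high dose. Sibjeondaebo-tang gave 42.8, 45.2 and 42.4, then 45.9, 43.8 and 40.2, then 49.7, 47.2 and 45.3 CPM. Samul-tang gave 47.1 and 44.0, then 45.6 and 52.1, then 44.8 and 44.1 CPM. Low-dose Palmul-tang lay below vehicle without overlap, at a log2 fold change of -0.21 (SE 0.06, adjusted p = 0.00757), which held in every left-out fit. Medium-dose Sibjeondaebo-tang was also lower, at a log2 fold change of -0.19 (SE 0.06, adjusted p = 0.00982), lost without medium-dose replicate 3 (adjusted p up to 0.0935). The other WIPI2 calls, -0.16 in high-dose Palmul-tang and -0.19 in low-dose Sibjeondaebo-tang, were lost without vehicle replicate 1 or 2 or high-dose replicate 2 or 3 (adjusted p up to 0.118, and up to 0.0851 with other processing, where 6 of 7 settings kept the call), and without vehicle replicate 1 or 2 or low-dose replicate 1 or 3 (adjusted p up to 0.0646).

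ATG9A, the scramblase whose vesicles supply the membrane, was lower than vehicle in 5 of 9 comparisons, at log2 fold changes of -0.22 to -0.16. It is singled out after its values were seen. Vehicle libraries stood at 119.7, 115 and 127 CPM and medium-dose Sibjeondaebo-tang at 111, 97.9 and 100.4 CPM, without overlap. Only that call, -0.22 (SE 0.05, adjusted p = 0.00158), held in every left-out fit. The call in low-dose Palmul-tang was lost without vehicle replicate 1 or 3 or low-dose replicate 2 (adjusted p up to 0.131, and up to 0.0746 with other processing, where 6 of 7 settings kept the call), in low-dose Sibjeondaebo-tang without vehicle replicate 3 or low-dose replicate 3 (adjusted p up to 0.0922), in medium-dose Samul-tang without vehicle replicate 3 or medium-dose replicate 2 (adjusted p up to 0.431, and up to 0.185 with other processing, where 6 of 7 settings kept the call) and in low-dose Samul-tang without vehicle replicate 1 or 3 or low-dose replicate 2 or 3 (adjusted p up to 0.178, and up to 0.0552 with other processing, where 4 of 7 settings kept the call). The exons of ATG9A, and those of GABARAP, MCOLN1, CTSD, TPP1 and HEXA, overlap another gene on the same strand, so their counts are partly an estimate. ATG14, which brings the lipid kinase to the membrane (low-dose Palmul-tang, -0.21) and ATG2A, a lipid carrier (medium-dose Samul-tang, -0.20) had 1 call each, lost without vehicle replicate 2 or 3 or low-dose replicate 1, 2 or 3 (adjusted p up to 0.232, and up to 0.0918 with other processing, where 4 of 7 settings kept the call) and without vehicle replicate 2 or 3 or medium-dose replicate 2 (adjusted p up to 0.393, and up to 0.2 with other processing, where 1 of 7 settings kept the call). Medium-dose Samul-tang stood at -0.10 for ATG9A without replicate 2, and at -0.12 for ATG2A with the offset for GC content and length. BECN1 had no call, at 71.5 to 85.2 CPM.

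Of the 4 conjugation enzymes, 1 had a call. ATG3, which attaches ATG8 proteins to lipid, stood at 29.4, 28.0 and 29.3 CPM in vehicle. Palmul-tang gave 31.0, 30.0 and 32.5, then 29.5, 31.3 and 31.1, then 29.4, 33.5 and 30.9 CPM from low to high dose. Sibjeondaebo-tang gave 31.5, 29.2 and 29.2, then 30.0, 33.7 and 30.5, then 32.6, 31.0 and 34.6 CPM. Samul-tang gave 32.7 and 28.9, then 32.4 and 29.5, then 31.3 and 29.6 CPM. High-dose Sibjeondaebo-tang lay above vehicle without overlap. Its difference of 0.18 (SE 0.06, adjusted p = 0.0268) was lost without vehicle replicate 1 or 2 or high-dose replicate 1 or 3 (adjusted p up to 0.21, and up to 0.0947 with other processing, where 4 of 7 settings kept the call). ATG5 (19.9 to 25.3 CPM), ATG7 (8.78 to 12.2 CPM) and ATG12 (27.7 to 35.6 CPM) were called in no comparison with vehicle.

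LAMP1, an abundant glycoprotein of the lysosomal membrane (ENSG00000185896, chr13:113297241-113323672, plus strand), stood at 210.5, 232 and 219 CPM in vehicle. Palmul-tang gave 220.1, 209.8 and 199, then 217, 209 and 214, then 221, 205 and 229 CPM from low to high dose. Sibjeondaebo-tang gave 209.7, 209 and 205, then 220.1, 209 and 209, then 248, 239 and 231 CPM. Samul-tang gave 210.4 and 213, then 218 and 217, then 226 and 218 CPM. High-dose Sibjeondaebo-tang libraries lay above all low-dose ones, and the lowest of them overlapped the highest vehicle library. LAMP1 was higher by 0.20 (SE 0.05, adjusted p = 0.00193) in high against low dose of this formula, which held in every left-out fit (0.19 and adjusted p = 0.012 without low-dose replicate 3). The difference from vehicle, 0.12 (SE 0.05, adjusted p = 0.0494), was lost without vehicle replicate 1 or 3 or high-dose replicate 1, 2 or 3 (adjusted p up to 0.355, and up to 0.215 with other processing, where 3 of 7 settings kept the call), and was 0.07 without vehicle replicate 1. In Palmul-tang (0.06) and Samul-tang (0.07) high against low dose was not called. LAMP2, its partner that also serves chaperone-mediated autophagy, stood at 158, 144 and 153 CPM in vehicle. Palmul-tang gave 151, 158 and 163, then 165, 159.5 and 159, then 167, 159.9 and 168 CPM from low to high dose. Sibjeondaebo-tang gave 164, 163 and 164, then 159, 169 and 165, then 165, 165 and 168 CPM. Samul-tang gave 148 and 163, then 153 and 171, then 149 and 165 CPM. It was called in 1 of the 9 comparisons with vehicle, high-dose Sibjeondaebo-tang, which lay above vehicle without overlap. That difference of 0.13 (SE 0.05, adjusted p = 0.0419) was lost without vehicle replicate 2 or 3 or high-dose replicate 1, 2 or 3 (adjusted p up to 0.304, and up to 0.154 with other processing, where 2 of 7 settings kept the call). It was 0.08 without vehicle replicate 2 and 0.08 with the offset for GC content and length. The calcium channel gene MCOLN1 ranged from 7.597 to 11.2 CPM and had no call.

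The lysosomal hydrolases split by gene. CTSL and CTSB, which encode the cysteine proteases cathepsin L and B, and GLA, which encodes alpha-galactosidase A, were higher at the high doses, while the aspartic protease gene CTSD and the sialidase gene NEU1 were lower in Palmul-tang and Samul-tang.

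GLA (ENSG00000102393, chrX:101397803-101408012, minus strand) stood at 27.3, 23.6 and 24.9 CPM in vehicle and at 23.0, 25.5 and 23.7, then 30.4, 27.4 and 23.6, then 33.02, 31.5 and 32.95 CPM at low, medium and high Palmul-tang. Sibjeondaebo-tang gave 23.7, 24.9 and 25.4, then 27.4, 24.9 and 27.01, then 32.5, 30.0 and 30.5 CPM. Samul-tang gave 26.9 and 25.5, then 31.5 and 28.3, then 29.8 and 30.5 CPM. Every high-dose library lay above every vehicle library and above the low-dose libraries of its formula. From low to high dose GLA rose by 0.43 (SE 0.07, adjusted p = 0.000106) in Palmul-tang and 0.33 (SE 0.07, adjusted p = 0.000936) in Sibjeondaebo-tang, and both held in every left-out fit (0.35 without Sibjeondaebo-tang low-dose replicate 3). Samul-tang gave 0.20 (adjusted p = 0.374), which was not called, with a 95% interval of 0.02 to 0.38. Against vehicle the high doses were higher by 0.37 (SE 0.07, adjusted p = 0.000177), 0.30 (SE 0.07, adjusted p = 0.00134) and 0.26 (SE 0.08, adjusted p = 0.018) in the same order, the last lost without vehicle replicate 2 or high-dose replicate 2 or 3 (adjusted p up to 0.107). Medium-dose Samul-tang was also higher (0.25), lost without vehicle replicate 2 or 3 or medium-dose replicate 2 (adjusted p up to 0.356, and up to 0.152 with other processing, where 5 of 7 settings kept the call).

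CTSL (ENSG00000135047, chr9:87725519-87731393, plus strand) stood at 55.3, 59.0 and 57.2 CPM in vehicle and at 62.4, 62.1 and 60.3, then 64.8, 59.2 and 62.2, then 67.2, 68.6 and 77.2 CPM at low, medium and high Palmul-tang. Sibjeondaebo-tang gave 57.7, 59.4 and 62.0, then 60.7, 59.9 and 60.9, then 70.8, 63.1 and 68.5 CPM. Samul-tang gave 64.1 and 59.3, then 74.4 and 62.0, then 71.5 and 68.4 CPM. All high-dose libraries lay above vehicle and above the low dose of their formula. Against vehicle the high doses were higher by 0.31 (SE 0.06, adjusted p = 0.000185), 0.24 (SE 0.06, adjusted p = 0.00247) and 0.29 (SE 0.07, adjusted p = 0.00217), the last lost without high-dose replicate 2 (adjusted p up to 0.0523). Between low and high dose the log2 fold change was 0.20 (SE 0.06, adjusted p = 0.033) in Palmul-tang, lost without low-dose replicate 1, 2 or 3 or high-dose replicate 3 (adjusted p up to 0.232), and 0.18 (SE 0.06, adjusted p = 0.0351) in Sibjeondaebo-tang, lost without high-dose replicate 1 or 3 or low-dose replicate 1 or 2 (adjusted p up to 0.181, and up to 0.12 with other processing, where 4 of 7 settings kept the call). Samul-tang had 0.18, not called (adjusted p = 0.328). The medium dose of Samul-tang was higher than vehicle by 0.26, lost without medium-dose replicate 2 (adjusted p up to 0.414, and up to 0.13 with other processing, where 6 of 7 settings kept the call). It was 0.12 without medium-dose replicate 2 and 0.38 without replicate 3. Reads of CTSL can be shared with its pseudogenes.

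CTSB stood at 240.5, 256 and 247 CPM in vehicle and at 247, 250.1 and 255, then 265, 266 and 257, then 286, 277 and 280.4 CPM at low, medium and high Palmul-tang. Sibjeondaebo-tang gave 259, 262 and 252, then 266, 260.1 and 261, then 281, 273 and 291 CPM. Samul-tang gave 286 and 256, then 279 and 277, then 269.5 and 286 CPM. High-dose libraries of all 3 formulas lay above vehicle, and 1 of the 2 low-dose Samul-tang libraries was as high as any of its high-dose ones. The high doses were above vehicle by 0.18 (SE 0.04, adjusted p = 0.00132), 0.19 (SE 0.04, adjusted p = 0.00104) and 0.17 (SE 0.05, adjusted p = 0.0141), the last lost without high-dose replicate 3 (adjusted p up to 0.195). Set against the low dose, the high dose gave a log2 fold change of 0.17 (SE 0.04, adjusted p = 0.0127) in Palmul-tang, lost without high-dose replicate 1 or low-dose replicate 1 (adjusted p up to 0.061, and up to 0.0715 with other processing, where 6 of 7 settings kept the call), and 0.13 (SE 0.04, adjusted p = 0.0321) in Sibjeondaebo-tang, lost without high-dose replicate 1 or 3 or low-dose replicate 1, 2 or 3 (adjusted p up to 0.268, and up to 0.362 with other processing, where 5 of 7 settings kept the call) and at 0.08 without high-dose replicate 3. The medium dose of Samul-tang was higher than vehicle by 0.17, lost without medium-dose replicate 2 (adjusted p up to 0.0818, and up to 0.185 with other processing, where 6 of 7 settings kept the call).

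CTSD (ENSG00000117984, chr11:1752752-1764573, minus strand) stood at 381, 399.9 and 378 CPM in vehicle and at 370.0, 374 and 381, then 357, 382 and 349.9, then 336, 341 and 308 CPM at low, medium and high Palmul-tang. Sibjeondaebo-tang gave 384, 364 and 364, then 373, 344 and 366, then 346, 363 and 365 CPM. Samul-tang gave 358 and 387, then 365 and 354, then 317 and 334 CPM. High-dose Palmul-tang and Samul-tang libraries lay below all vehicle and low-dose libraries of their formula. CTSD was lower than vehicle, at a log2 fold change of -0.23 (SE 0.05, adjusted p = 0.000345) in high-dose Palmul-tang and -0.25 (SE 0.05, adjusted p = 0.00137) in high-dose Samul-tang, the second lost without high-dose replicate 2 (adjusted p up to 0.0545). From low to high dose CTSD fell by 0.19 (SE 0.05, adjusted p = 0.0105) in Palmul-tang, lost without high-dose replicate 3 or low-dose replicate 3 (adjusted p up to 0.097). High-dose Sibjeondaebo-tang differed from vehicle at a log2 fold change of -0.11 and was not called (adjusted p = 0.0672).

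NEU1 (ENSG00000204386, chr6:31857659-31862906, minus strand) stood at 366, 350.3 and 344 CPM in vehicle and at 351, 343 and 350.1, then 356, 319 and 333, then 301, 314 and 308 CPM at low, medium and high Palmul-tang. Sibjeondaebo-tang gave 337, 352 and 351, then 339.6, 338 and 349, then 319, 335 and 338 CPM. Samul-tang gave 356 and 354, then 387 and 371, then 318 and 321 CPM. The high-dose Palmul-tang libraries were the lowest of the replicated groups. NEU1 was lower there, at a log2 fold change of -0.20 (SE 0.04, adjusted p = 0.000611) against vehicle and -0.18 (SE 0.04, adjusted p = 0.00777) against the low dose, and both calls held in every left-out fit. High-dose Samul-tang was lower than vehicle, at a log2 fold change of -0.15 (SE 0.05, adjusted p = 0.0314), lost without vehicle replicate 1 or 2 or high-dose replicate 2 or 3 (adjusted p up to 0.171, and up to 0.237 with other processing, where 4 of 7 settings kept the call).

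TPP1, a serine protease of the lysosome, was higher than vehicle in all 6 comparisons of Palmul-tang and Sibjeondaebo-tang, and is singled out after its values were seen. Vehicle libraries stood at 137, 132 and 141 CPM, and Palmul-tang at 165, 155 and 175, then 138, 158 and 169.6, then 149, 165 and 154 CPM from low to high dose. Sibjeondaebo-tang gave 160.0, 178 and 159, then 163, 170.2 and 179, then 148, 155 and 160.2 CPM. Only 1 of these 18 libraries, at 138 CPM, lay within the vehicle range. Samul-tang gave 148 and 154, then 156 and 135, then 144 and 157 CPM, and was not called. The single Sagunja-tang libraries stood at 153, 156 and 139 CPM from low to high dose. A level set in the vehicle libraries alone cannot be told apart here from an effect present at every dose. The log2 differences were 0.27, 0.18 and 0.19 in Palmul-tang and 0.28, 0.32 and 0.18 in Sibjeondaebo-tang, from low to high dose. High against low dose was -0.08 and -0.10 and was not called. Both low-dose calls and the medium-dose Sibjeondaebo-tang call held in every left-out fit. The others were lost without vehicle replicate 1, 2 or 3 or medium-dose replicate 2 or 3 (adjusted p up to 0.279), without vehicle replicate 1 or 2 or high-dose replicate 2 (adjusted p up to 0.152) and without vehicle replicate 1 or 2 or high-dose replicate 2 or 3 (adjusted p up to 0.195, and up to 0.0519 with other processing, where 6 of 7 settings kept the call). Medium-dose Palmul-tang was at 0.12 without its replicate 3. Of the remaining hydrolase genes, HEXA was higher in medium-dose Samul-tang (0.19), lost without medium-dose replicate 2 (adjusted p up to 0.158, and up to 0.152 with other processing, where 6 of 7 settings kept the call), and PSAP lower in low-dose Palmul-tang (-0.12), lost without vehicle replicate 2 or 3 or low-dose replicate 1 or 3 (adjusted p up to 0.247, and up to 0.241 with other processing, where 2 of 7 settings kept the call). CTSA, GAA and GUSB had no call.

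The V-ATPase acidifies the lysosome, with a cytoplasmic V1 part that splits ATP and a membrane V0 part that carries protons. ATP6V1A, the catalytic V1 subunit (ENSG00000114573, chr3:113747019-113812056, plus strand), stood at 68.9, 69.1 and 71.2 CPM in vehicle and at 51.8, 57.9 and 53.5, then 57.2, 54.2 and 52.1, then 56.3, 50.3 and 58.6 CPM at low, medium and high Palmul-tang. Sibjeondaebo-tang gave 59.3, 58.2 and 58.4, then 57.1, 56.3 and 50.8, then 57.3, 60.9 and 56.6 CPM. Samul-tang gave 54.99 and 57.3, then 39.5 and 59.1, then 53.9 and 56.1 CPM. All 24 extract libraries lay below all 3 vehicle libraries, and ATP6V1A was called lower in 9 of 9 comparisons, from -0.25 (SE 0.09, adjusted p = 0.0411) in low-dose Sibjeondaebo-tang to -0.51 (SE 0.10, adjusted p = 0.000967) in medium-dose Samul-tang. High against low dose was 0.01, -0.01 and -0.03 in Palmul-tang, Sibjeondaebo-tang and Samul-tang, with a 95% interval of -0.17 to 0.20 in the first. The 3 Palmul-tang calls and the medium-dose Sibjeondaebo-tang call held in every left-out fit. The low-dose calls of Sibjeondaebo-tang and Samul-tang were lost whichever library was left out (adjusted p up to 0.103 and 0.221), and the second also with the replicate block (adjusted p = 0.0639). The high-dose Sibjeondaebo-tang call was lost without vehicle replicate 3 or high-dose replicate 1 or 3 (adjusted p up to 0.0692), the high-dose Samul-tang call without high-dose replicate 2 or 3 (adjusted p up to 0.144) and the medium-dose one without medium-dose replicate 2 (adjusted p up to 0.0624, and up to 0.0937 with other processing, where 6 of 7 settings kept the call). That medium-dose value rested on 1 library, and was -0.24 without replicate 2 and -0.82 without replicate 3. A level set in the vehicle libraries alone moves all 9 comparisons together, and here it cannot be told apart from an effect present at every dose.

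ATP6V1H, a regulatory V1 subunit, stood at 22.0, 24.0 and 20.6 CPM in vehicle and at 18.2, 19.2 and 17.1, then 18.5, 18.8 and 16.5, then 18.8, 17.4 and 18.9 CPM at low, medium and high Palmul-tang. Sibjeondaebo-tang gave 17.1, 18.4 and 17.8, then 18.2, 18.1 and 16.9, then 19.7, 20.2 and 20.6 CPM. Samul-tang gave 16.8 and 18.5, then 18.3 and 19.5, then 19.2 and 18.8 CPM. It was called lower in 8 of 9 comparisons, all but high-dose Sibjeondaebo-tang, whose highest library reached the lowest vehicle one (-0.14, adjusted p = 0.0939). The log2 fold changes ran from -0.33 (SE 0.07, adjusted p = 0.00367) in low-dose to -0.23 (SE 0.07, adjusted p = 0.0268) in high-dose Samul-tang. All 3 Palmul-tang calls and the low- and medium-dose Sibjeondaebo-tang calls held in every left-out fit, while the Samul-tang calls were lost without vehicle replicate 1 or 2 or high-dose replicate 2 or 3 (adjusted p up to 0.175, and up to 0.0947 with other processing, where 6 of 7 settings kept the call), without vehicle replicate 2 or medium-dose replicate 2 (adjusted p up to 0.274, and up to 0.174 with other processing, where 5 of 7 settings kept the call) and without low-dose replicate 2 (adjusted p up to 0.0923). High-dose Sibjeondaebo-tang was above its low dose by 0.18 (SE 0.07, adjusted p = 0.0479), lost without any 1 of its 6 libraries and kept in 1 of 7 settings of other processing (adjusted p up to 0.249). ATP6V0D1, a V0 subunit, stood at 63.6, 58.9 and 63.5 CPM in vehicle. Palmul-tang gave 54.8, 56.6 and 56.8, then 58.2, 56.1 and 54.3, then 55.05, 55.5 and 59.8 CPM from low to high dose. Sibjeondaebo-tang gave 55.9, 60.2 and 59.1, then 58.9, 55.8 and 59.6, then 66.0, 62.3 and 63.5 CPM. Samul-tang gave 61.8 and 59.4, then 59.98 and 59.0, then 58.4 and 56.5 CPM. It was lower than vehicle in Palmul-tang at the high (-0.13), medium (-0.14) and low dose (-0.14), and the highest high-dose library overlapped the lowest vehicle one. These calls were lost without vehicle replicate 1 or 3 or high-dose replicate 1 or 2 (adjusted p up to 0.153, and up to 0.22 with other processing, where 1 of 7 settings kept the call), without vehicle replicate 1 or 3 or medium-dose replicate 2 or 3 (adjusted p up to 0.144, and up to 0.145 with other processing, where 3 of 7 settings kept the call) and without vehicle replicate 1 or 3 or low-dose replicate 1, 2 or 3 (adjusted p up to 0.136, and up to 0.204 with other processing, where 4 of 7 settings kept the call).

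The V-ATPase genes were called in both directions. Of 16 tested, these 3 and 13 from a wider list, 3 were higher and 7 lower in high-dose Palmul-tang, 3 and 4 in high-dose Sibjeondaebo-tang and 2 and 5 in high-dose Samul-tang. Over all genes 16.3% were higher and 15.6% lower in the first, 19.3% and 16.7% in the second and 9.82% and 8.69% in the third. ATP6V0C, which encodes the proton-carrying ring, was higher by 0.43, 0.59 and 0.27 at these doses, and ATP6V1G1, a stalk subunit, by 0.38, 0.41 and 0.38. ATP6V1B2, the partner of the catalytic subunit, was lower, at -0.31, -0.22 and -0.21, and ATP6V0B, a further ring subunit, at -0.28, -0.43 and -0.27. ATP6V1G1 is named after its values were seen.

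**Figure D4:**
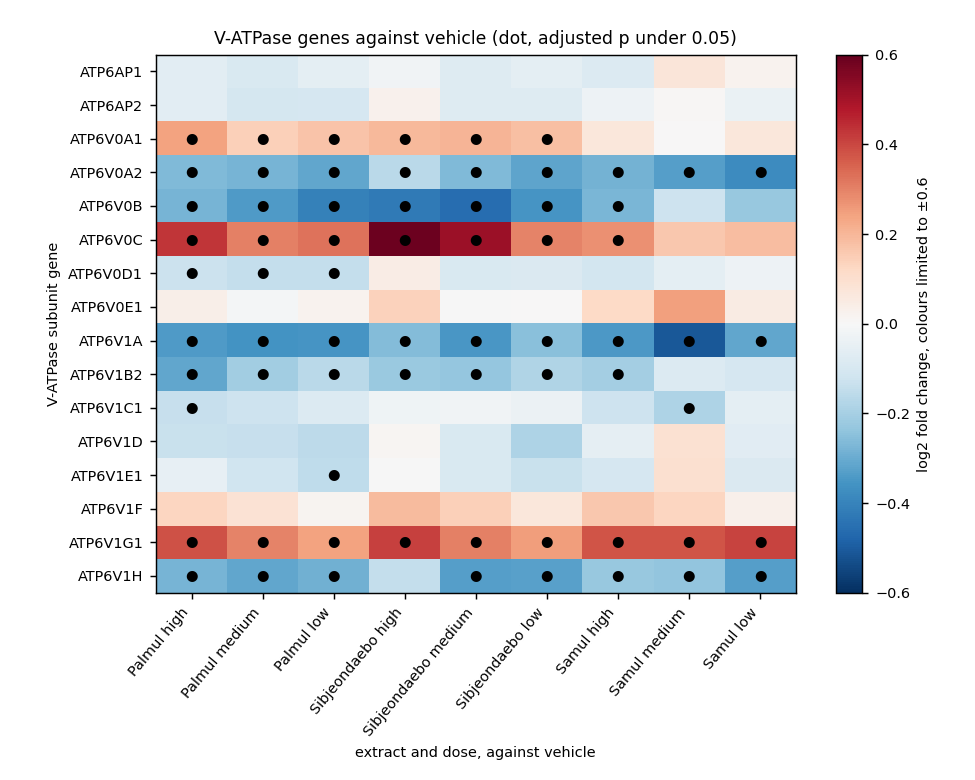
Log2 fold change against vehicle (colour, limited to ±0.6) of 16 V-ATPase genes (rows) at each dose of 3 formulas (columns), with a dot where the adjusted p is under 0.05. ATP6V1A is blue with a dot in 9 of 9 columns, and ATP6V1G1 is red with a dot in 9 of 9.

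High against low dose, which leaves out the vehicle libraries, gave fewer calls. In Palmul-tang 4 members were higher (SQSTM1, GLA, CTSL and CTSB) and 2 lower (CTSD and NEU1), with 6.78% of all genes called (3.75% higher and 3.03% lower). In Sibjeondaebo-tang 8 were higher, the same 4 with LAMP1, NBR1, ATP6V1H and ATP6V0D1, and ULK1 was lower. Of all genes 19.8% were called there (10.4% higher and 9.44% lower). That balance moved with the size factors, from 1673 higher and 1518 lower genes to 1261 and 1672 with median-ratio size factors. Only SQSTM1 was called in Samul-tang, where 1.42% of all genes were (0.709% higher and 0.715% lower). The Sibjeondaebo-tang count of 9 fell to 4 without low-dose replicate 1 or high-dose replicate 3 and to 5 without high-dose replicate 1 or low-dose replicate 2, and was 6 without low-dose replicate 3. Over all genes 1173 were higher and 1210 lower without low-dose replicate 1, and 847 and 1198 without high-dose replicate 3. Without low-dose replicate 3, the library with raised fibroblast markers, NBR1 was at 0.20, ULK1 at -0.28, CTSL at 0.20 and GM2A at -0.19 in high against low Sibjeondaebo-tang, all still called. ATP6V0D1 was at 0.14, ATP6V1H at 0.18 and CTSB at 0.11 and were no longer called (adjusted p = 0.0849, 0.1 and 0.125). Against vehicle, low-dose Sibjeondaebo-tang without it kept the calls of TPP1 (0.31) and ATP6V1H (-0.33), and lost those of TFE3 (0.18), SQSTM1 (-0.10), WIPI2 (-0.17), ATG9A (-0.16) and ATP6V1A (-0.25). The dose effects themselves were compared between formulas. No member differed between Sibjeondaebo-tang and Palmul-tang (edgeR, 2 members at an unadjusted p under 0.05, 0 by DESeq2, 2% of all genes called, 0.0497% higher and 1.95% lower) or between Samul-tang and Palmul-tang (1 member at an unadjusted p under 0.05, 0 by DESeq2, 0.0124% of all genes called). Between Sibjeondaebo-tang and Samul-tang 1 did, NBR1 (1.68% of all genes called, 0.0995% higher and 1.58% lower), whose dose effect was higher in Sibjeondaebo-tang by 0.29 (SE 0.07, adjusted p = 0.0352), lost without Samul-tang high-dose replicate 2 or 3 or Samul-tang low-dose replicate 2 or 3 or Sibjeondaebo-tang high-dose replicate 1 or 3 or Sibjeondaebo-tang low-dose replicate 1 or 2 (adjusted p up to 0.195, and up to 0.226 with other processing, where 5 of 7 settings kept the call). For SQSTM1 the dose effect in Sibjeondaebo-tang minus that in Palmul-tang was -0.06, with a 95% interval of -0.19 to 0.06.

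**Figure D5:**
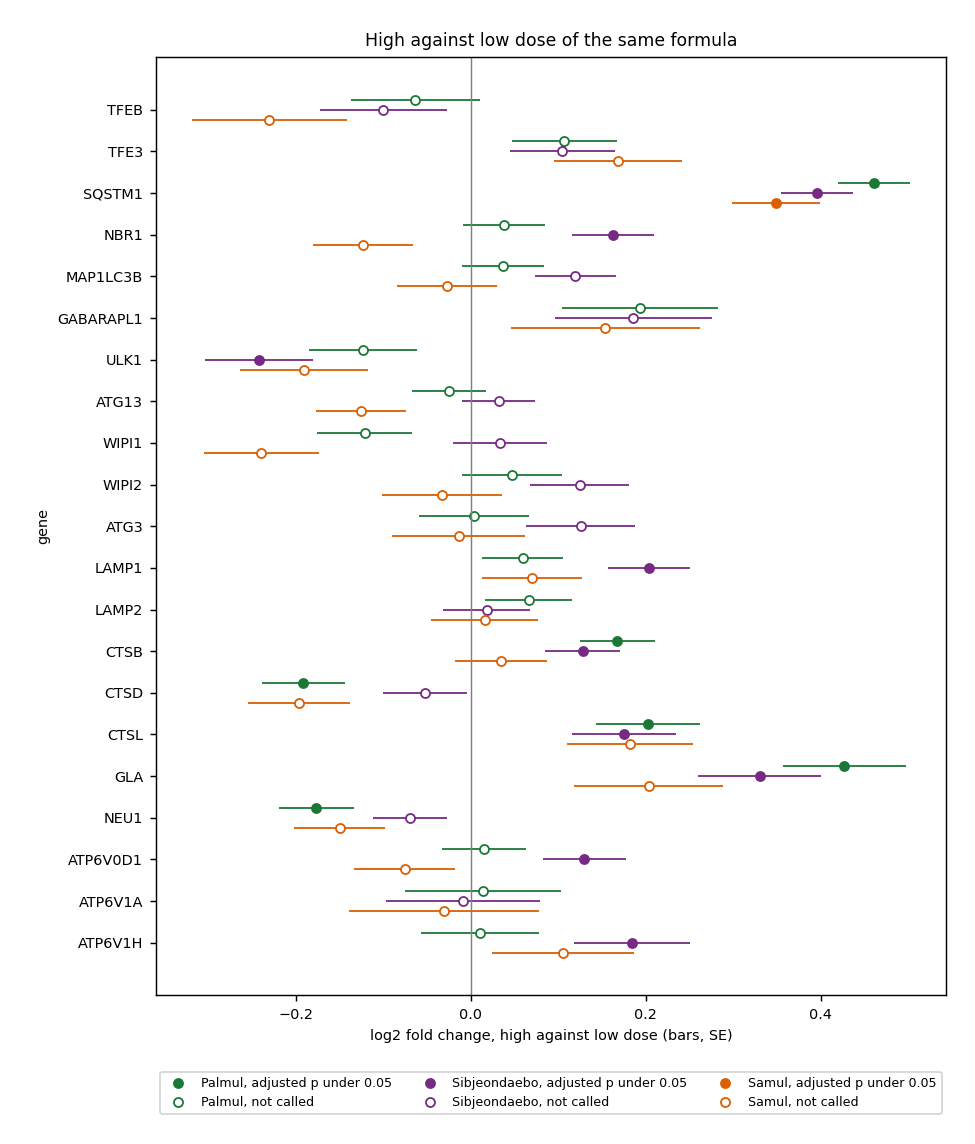
Log2 fold change of high against low dose (points, with bars of 1 SE) for 21 genes in Palmul-tang, Sibjeondaebo-tang and Samul-tang, filled where the adjusted p is under 0.05. SQSTM1 lies farthest right in all 3 formulas, at 0.46, 0.40 and 0.35, and ULK1 is filled on the left in Sibjeondaebo-tang at -0.24.

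Sibjeondaebo-tang and Palmul-tang were also set against each other at equal dose, which compares extracts under the same sample-code prefix. At the high dose 1 member differed, ATP6V0D1, with 66.0, 62.3 and 63.5 CPM in Sibjeondaebo-tang and 55.05, 55.5 and 59.8 CPM in Palmul-tang, while 6.47% of all genes were called (1.75% higher and 4.72% lower). Over all genes 282 were higher and 759 lower there, or 148 and 839 with median-ratio size factors. The groups did not overlap, and the difference was 0.17 (SE 0.05, adjusted p = 0.0231), lost without Palmul-tang high-dose replicate 1 or 2 or Sibjeondaebo-tang high-dose replicate 1 or 3 (adjusted p up to 0.121, and up to 0.21 with other processing, where 4 of 7 settings kept the call). SQSTM1 had a log2 difference of -0.05 (95% interval -0.14 to 0.03) and GLA, at a log2 fold change of -0.07 (-0.22 to 0.08), neither called. No member was called at the medium dose (edgeR, 2 at an unadjusted p under 0.05, 0 by DESeq2, 0.0311% of all genes called) or the low dose (0 at an unadjusted p under 0.05, 0 by DESeq2, 0% of all genes called). The largest differences there were -0.15 for ATG101 and 0.12 for ATG14.

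Sagunja-tang had 1 library per dose, so its values have no replicate check and no test. At the high dose SQSTM1 stood at 261 CPM, above every other library, and at 165 and 163 CPM at the medium and low dose, below the vehicle range. GLA stood at 43.2 CPM at the high dose, 1.71-fold the vehicle mean of 25.3 CPM, and at 29.7 and 28.2 CPM below it. GABARAPL1 reached 15.0 CPM at the high dose, and TFEB was at 7.85 CPM, both outside the range of all other libraries. CTSD and NEU1 were at 316 and 304 CPM at the high dose, below their vehicle ranges. Of the 39 members, 2 lay outside the vehicle range and at least 1.5-fold from the vehicle mean on the log2 scale at the high dose (GLA and MITF, the second at 0.551 CPM beside a highest vehicle library of 0.441), 0 at the medium and 1 at the low (MITF), against 10.9%, 7.69% and 7.9% of all tested genes.

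The rest of the pathway was read from 7 further lists with 139 genes, of which 131 were tested. Against vehicle 23 were higher and 24 lower in high-dose Palmul-tang, 36 and 22 in high-dose Sibjeondaebo-tang and 10 and 16 in high-dose Samul-tang. That is 35.9%, 44.3% and 19.8% of the 131, beside 31.8%, 36% and 18.5% of all genes. High against low dose gave 4 and 3, 23 and 6, and 1 and 0, or 5.34%, 22.1% and 0.763% beside 6.78%, 19.8% and 1.42% of all genes. Their median log2 fold change was -0.01, 0.04 and -0.02 in the first 3 comparisons and 0.03, 0.08 and -0.00 in the others. In high against low Sibjeondaebo-tang the balance of higher and lower calls over all genes moved with the size factors, as given above.

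In high-dose Sibjeondaebo-tang 7 of 9 tested further receptors of selective autophagy were higher and 1 lower, with a median of 0.23, where 19.3% of all genes were higher and 16.7% lower. They were higher in 5 of 9 in high-dose Palmul-tang (16.3% of all genes) and 2 of 9 in high-dose Samul-tang (9.82% of all genes). BNIP3 and BNIP3L encode mitochondrial receptors that oxygen shortage is known to induce. BNIP3 was at 123 ± 6.54 CPM (mean ± SD, n = 3) in vehicle and 174 ± 6.18, 174 ± 14.4 (n = 3 each) and 169 ± 8.49 CPM (n = 2) at the high doses of Palmul-tang, Sibjeondaebo-tang and Samul-tang. It was higher by 0.50 (SE 0.06, adjusted p = 2.77e-07), 0.50 (SE 0.06, adjusted p = 2.32e-07) and 0.45 (SE 0.07, adjusted p = 1.74e-05). Medium-dose Palmul-tang was higher still, at 183 ± 9.96 CPM (n = 3), and the single Sagunja-tang libraries stood at 179.8, 190.2 and 137 CPM from low to high dose. BNIP3L was higher by 0.46, 0.54 and 0.43 in the same comparisons, and it was higher at low doses already (58.3 ± 2.18 CPM in low-dose Palmul-tang, 43.1 ± 1.31 in vehicle). BNIP3 also rose from low to high dose, by 0.24 in Palmul-tang, lost without low-dose replicate 2 or high-dose replicate 3 (adjusted p up to 0.0752), and by 0.41 in Sibjeondaebo-tang (0.37 without low-dose replicate 3).

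Genes around mTORC1 were called in both directions, 5 higher and 5 lower of 24 in high-dose Palmul-tang, 4 and 6 in high-dose Sibjeondaebo-tang and 2 and 5 in high-dose Samul-tang. These are 41.7%, 41.7% and 29.2% of the list, beside 31.8%, 36% and 18.5% of all genes. DDIT4, which encodes the mTORC1 inhibitor REDD1, was higher by 0.64 (SE 0.09, adjusted p = 7.8e-06) in high-dose Palmul-tang and 0.64 (SE 0.10, adjusted p = 6.74e-05) in high-dose Samul-tang, by 0.59 in high-dose Sibjeondaebo-tang, and rose from low to high dose in Sibjeondaebo-tang by 0.53, in Palmul-tang by 0.33 and in Samul-tang by 0.43. The first was 0.51 without low-dose replicate 3. The last 2 were lost without high-dose replicate 1 or 2 or low-dose replicate 3 (adjusted p up to 0.121) and without high-dose replicate 2 or low-dose replicate 2 or 3 (adjusted p up to 0.471). FLCN encodes folliculin, which lets mTORC1 hold TFEB and TFE3 in the cytoplasm, and RRAGC encodes the small GTPase that folliculin acts on. FLCN was lower, at a log2 fold change of -0.58 (SE 0.08, adjusted p = 3.51e-06), -0.54 (SE 0.08, adjusted p = 6.64e-06) and -0.38 (SE 0.09, adjusted p = 0.00342) at the 3 high doses, from 18.6 ± 1.51 CPM in vehicle to 12.4 ± 1.01, 12.8 ± 1.19 and 14.3 ± 0.952 CPM. The Samul-tang call was lost without high-dose replicate 3 (adjusted p up to 0.0713). FLCN also fell from low to high dose in Palmul-tang (-0.27), lost without low-dose replicate 1, 2 or 3 or high-dose replicate 2 or 3 (adjusted p up to 0.223). RRAGC was lower in high-dose Palmul-tang (-0.48 against vehicle and -0.30 against its low dose), the second lost without high-dose replicate 1 (adjusted p up to 0.0612).

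The other lysosomal hydrolases had 4 genes higher and 3 lower of 29 in high-dose Palmul-tang, 8 and 5 in high-dose Sibjeondaebo-tang and 2 and 2 in high-dose Samul-tang. Their shares of 24.1%, 44.8% and 13.8% stand beside 31.8%, 36% and 18.5% of all genes. Other lysosomal membrane and transport genes had 3 and 5 of 21, 7 and 3, and 2 and 3, or 38.1%, 47.6% and 23.8%. GM2A, the activator protein that presents a ganglioside to hexosaminidase, was lower, at a log2 fold change of -0.41 (SE 0.04, adjusted p = 2.26e-08), -0.33 (SE 0.04, adjusted p = 8.49e-07) and -0.35 (SE 0.05, adjusted p = 6.58e-06) at the high doses, from 86.1 ± 0.73 CPM in vehicle to 64.9 ± 1.88, 68.7 ± 1.36 and 67.5 ± 0.332 CPM. It also fell from low to high dose in Palmul-tang (-0.19) and in Sibjeondaebo-tang (-0.15), the second lost without high-dose replicate 2 or low-dose replicate 2 (adjusted p up to 0.112). The cholesterol exporter NPC1 rose from low to high dose in Sibjeondaebo-tang (0.30) and in Palmul-tang (0.20), the second lost without high-dose replicate 1 or 3 or low-dose replicate 1, 2 or 3 (adjusted p up to 0.265). The protease gene CTSC rose by 0.23 and 0.20 in the same 2 comparisons. Without Sibjeondaebo-tang low-dose replicate 3 NPC1 was at 0.28 and CTSC at 0.23. MANBA, a mannosidase gene, was higher than vehicle by 0.33 and 0.39 at high Palmul-tang and Sibjeondaebo-tang. GPNMB, a lysosomal membrane glycoprotein, was higher by 0.77 in high-dose Samul-tang, lost without high-dose replicate 2 (adjusted p up to 0.0735), and the membrane-trafficking gene ZFYVE1 was lower there (-0.36), lost without high-dose replicate 3 (adjusted p up to 0.0643), as was the V-ATPase gene ATP6V0A2 (-0.28).

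The other autophagy machinery had 1 gene higher and 1 lower of 22 in high-dose Palmul-tang, 4 and 1 in high-dose Sibjeondaebo-tang and 0 and 1 in high-dose Samul-tang, and the genes of autophagosome-lysosome fusion 2 and 5 of 13, 3 and 3, and 0 and 1. The machinery's shares were 9.09%, 22.7% and 4.55%, below the 31.8%, 36% and 18.5% of all genes, and those of the fusion genes 53.8%, 46.2% and 7.69%. ATG16L2 is a relative of the conjugation scaffold ATG16L1. In Sibjeondaebo-tang it was at 7.06 ± 0.297 CPM at the low, 5.88 ± 1.124 at the medium and 3.07 ± 0.271 at the high dose (n = 3 each). It was at 7.22 ± 0.786 CPM in vehicle. The high-dose log2 fold change was -1.199 (SE 0.12, adjusted p = 8.1e-09) against the low dose and -1.23 (SE 0.12, adjusted p = 3.8e-09) against vehicle. The second was the largest called difference of the wider lists against vehicle in that group. At high Palmul-tang and Samul-tang it stood at 6.65 ± 0.684 and 6.03 ± 0.101 CPM. IDUA, a gene of low level, encodes the iduronidase of the lysosome. It fell from 0.982 ± 0.158 to 0.314 ± 0.237 CPM between low and high dose of Sibjeondaebo-tang, at a log2 fold change of -1.57 (SE 0.39, adjusted p = 0.00388). The chloride transporter gene CLCN7 fell by 0.23 in the same comparison. Without Sibjeondaebo-tang low-dose replicate 3 the log2 fold changes of high against low dose were -1.17 for ATG16L2, -1.62 for IDUA and -0.25 for CLCN7.

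The 9 members with an E-box in their windows, whose sequences were printed above for LAMP1, GAA, MCOLN1 and NEU1, were called in both directions. In high-dose Palmul-tang against vehicle 0 of 9 were higher and 3 lower, with a median of -0.03, beside 7 higher and 3 lower of the 24 tested members whose windows held none and a median of -0.03. High-dose Sibjeondaebo-tang had 2 higher and 0 lower of 9, and 7 and 1 of 24. High-dose Samul-tang had 0 and 2 of 9, and 4 and 3 of 24. Over all genes 16.3% were higher and 15.6% lower in the first comparison, 19.3% and 16.7% in the second and 9.82% and 8.69% in the third. CTSD and NEU1, both with the motif, were the pair of members called lower in high against low dose of Palmul-tang. LAMP1 and ATP6V0D1, also with it, were called higher in high against low dose of Sibjeondaebo-tang. The ATP6V0D1 call was lost without low-dose replicate 3.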

How the data were processed

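The labels name a directional mRNA library kit and 100 bp paired reads. Per the submitters' processing notes, RSEM 1.3.3, STAR 2.7.3a, Trim Galore 0.6.5 and FastQC 0.11.9 were used, with the build hg38 (GRCh38). The deposited values are the authors' expected counts per gene, of which 8.56% were not whole, and they were rounded here. The strand setting of the counting was not given in the sources used here, so reads of antisense neighbours cannot be told apart from a gene's own. Exons of SQSTM1, NBR1, MAP1LC3B, GABARAP, GABARAPL1, ATG13, ATG101, BECN1 and WIPI1 overlap a gene on the other strand. So do those of ATG3, ATG7, ATG12, CTSA, CTSD, TPP1, HEXA and ATP6V1A. The other 240 columns of the table were not used, and the positive control was not analysed here.

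In R 4.3.3, edgeR 4.0.16 fitted 27 libraries in 10 groups (TMM, filterByExpr with a minimum count of 10 and a total of 15, quasi-likelihood test, Benjamini-Hochberg adjustment over 16083 genes, 17 residual degrees of freedom). SE is the fold change over the root of F, and 95% intervals use t. The single Sagunja-tang libraries stayed out of the fit and were called at 1.5-fold from the vehicle mean on the log2 scale where they also lay outside the vehicle range. Doses are those of the sample labels. The members and lists were chosen with earlier results of these data known. Values by library are printed for SQSTM1, the TFEB family, MAP1LC3B, GABARAPL1 and up to 3 members per role with the smallest adjusted p over the high-dose comparisons, and up to 4 genes each way per comparison are named from the wider lists. Other members are given by range and count. Gene coordinates are GENCODE 29 on GRCh38. Promoter windows of 300 bases are from RefSeq.

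Alternatives tried were DESeq2 1.42.0, median-ratio size factors, no low-count filter, the compared groups alone, a replicate block, an offset for GC content and length (also with the block), a 1.3-fold limit, another prior count and each library left out. The fit was tested on simulated data with known changes. Of 1.2-fold changes it recovered 50% in high-dose Palmul-tang against vehicle. In high against low dose it recovered 46% in Sibjeondaebo-tang and 20% in Samul-tang. Of 1.5-fold changes it recovered 92%, 92% and 88% in the same order. A member not called can therefore still have a small change. Library totals of 21570416 to 37707232 counts make counting error small for members with high counts. It is not small for TFEB (213 to 375 counts per library), GABARAPL1 (236 to 445), MCOLN1 (189 to 391) and ATG7 (195 to 414). It is largest for MITF, MAP1LC3A and CTSZ.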

Additional observations from a re-analysis of the deposited data

Results flagged for a closer look

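The change of NBR1 from low to high dose differed between formulas by a test of the difference itself. It was 0.16 on the log2 scale in Sibjeondaebo-tang and -0.13 in Samul-tang, a difference of 0.29 (SE 0.07, edgeR adjusted p = 0.0352). Of the 10 libraries concerned, leaving out 8 in turn ended the call. The 2 low-dose Samul-tang libraries, at 114 and 112 CPM, lay above both high-dose ones, at 106 and 102 CPM.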

How the results depend on the processing

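Of 101 calls of single genes, 40 held under every setting tried, and 60 were lost without at least 1 library. No gene changed direction while called. The counts of genes called kept within 1.5 times except as follows. Without the low-count filter the count was 3 in medium-dose and 5 in low-dose Palmul-tang, 4 in high against low Sibjeondaebo-tang, 0 for Sibjeondaebo-tang against Palmul-tang at the high dose and 0 for the difference of dose effects between Sibjeondaebo-tang and Samul-tang. The last 3 were 5, 0 and 0 with median-ratio size factors. With the compared groups alone, medium-dose Samul-tang and high-dose Sibjeondaebo-tang against Palmul-tang had 0. DESeq2 called 2 in high against low Samul-tang. The offset for GC content and length gave 9 in medium-dose Sibjeondaebo-tang, 3 in high against low Samul-tang and 2 in high-dose Sibjeondaebo-tang against Palmul-tang, and the same 9, 3 and 2 with the replicate block added. A limit of 1.3-fold gave 5 and 2 members at high- and low-dose Sagunja-tang. The cause was not tested.

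Samples with the same replicate number did not pair: the correlation of their deviations ran from -0.17 to 0.108, over 0.1 in 1 of 41 pairs. With the replicate block, high-dose Sibjeondaebo-tang against Palmul-tang had 2 calls, and no other count moved by over 1.5 times.

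With 1 library left out at a time, counts against vehicle ran from 12 to 16, 2 to 10 and 5 to 7 at high, medium and low Palmul-tang, from 8 to 12, 4 to 7 and 2 to 6 for Sibjeondaebo-tang, and from 5 to 12, 0 to 10 and 0 to 3 for Samul-tang. High against low dose ran from 4 to 6, 4 to 8 and 1 to 1 in the same order. Sibjeondaebo-tang against Palmul-tang ran from 0 to 2, 0 to 0 and 0 to 0 at the high, medium and low dose, and the 3 differences of dose effects from 0 to 0, 0 to 0 and 0 to 1. Where Samul-tang kept 1 library in a group, it was assumed to vary like the other groups. Calls over all genes moved in these fits too, with examples given above.

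Depth limits MITF, MAP1LC3A and CTSZ most, and also members with low counts such as TFEB and GABARAPL1. The 2 or 3 libraries a group limit all members.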
